A study of Homo sapiens with 12 samples.

Results

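The tubulin genes described here are 10 members of the human alpha- and beta-tubulin families, taken by symbol from tables of read counts that hold 60649 genes. They are 4 alpha-tubulin genes (TUBA1A, TUBA1B, TUBA1C and TUBA4A) and 6 beta-tubulin genes (TUBB, TUBB2A, TUBB2B, TUBB3, TUBB4B and TUBB6). Their polyadenylated RNA was sequenced in SBC3, an established human small cell lung cancer line grown as spheroids, in 12 libraries that fall into 4 groups of 3. One group was the control, one received teriflunomide, which inhibits the pyrimidine synthesis enzyme DHODH, one received lurbinectedin, a DNA-binding drug that blocks transcription, and one received both drugs. Every group is the same cell line with no genetic change named, and the labels state neither dose nor duration of treatment. Nothing in the labels says that the 3 libraries of a group came from separate cultures, so p-values measure the spread between these libraries, which may be technical.

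Alpha- and beta-tubulin proteins pair into the heterodimers from which microtubules, the filaments of the mitotic spindle and of intracellular transport, are built. Cells carry several genes for each partner, called isotypes, which differ most at the carboxy-terminal tail and are used in different tissues. Vertebrate cells also adjust the stability of tubulin mRNA to the amount of free tubulin: the adaptor TTC5 reads the first amino acids of the growing tubulin chain on the ribosome and, through SCAPER and the CCR4-NOT deadenylase, leads that mRNA to decay.

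The start of the coding sequence carries the signal read by TTC5. The last codon shown was TGC in all the listed alpha genes and ATC in all the listed beta genes. The codons between it and the start codon varied within both families, and TUBB2B shared those of TUBA1B. The start is shown here for 5 members that cover the differing openings of the alpha genes and most of those of the beta genes. It is from the principal coding transcript of GENCODE 29 on GRCh38, with the start codon in lower case and the next 3 codons in capitals.
TUBA1B: atgCGTGAGTGC
TUBA4A: atgCGTGAATGC
TUBB: atgAGGGAAATC
TUBB2B: atgCGTGAGATC
TUBB3: atgAGGGAGATC
The opening of TUBB4B was letter for letter that of TUBB, and TUBA1A and TUBA1C shared that of TUBA1B. Over the whole coding sequence, the 6 pairs of alpha genes were 85.0 to 97.3% identical and the 15 pairs of beta genes 81.7 to 98.2%, with TUBB2A and TUBB2B the closest pair. Of all runs of 50 bases in their transcripts, 65.5% in TUBB2A, 52.2% in TUBB2B, 47.0% in TUBB3 and 45.9% in TUBA1B also occur in another gene, against 0.544% in TUBB6. All the shared runs of TUBB3 occur in the gene AC092143.1. Counts of TUBA1A, TUBA1B and TUBA1C, and of TUBB2A and TUBB2B, are therefore uncertain with respect to one another wherever the counting could split reads between them.

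The sequence before the RNA start is given for all 10 members, first the 7 whose mRNA was higher with lurbinectedin and then the 3 whose mRNA was not called different. For TUBA1C and TUBB3, which have several listed starts, the start with a TATA box is shown, and their other listed starts hold none. Each line is the 80 bases before a start listed by RefSeq on GRCh38.p14, read on the gene's strand, and capitals mark every match on either strand to the core of the TATA box (TATAA), the CCAAT box, the GC box (GGGCGG), the cAMP response element (TGACGTCA) and the E box (CACGTG), overlapping matches included; a match cut by the left edge is in capitals as far as it reaches into the line.
TUBA1A (chr12:49189081-49189160, minus strand): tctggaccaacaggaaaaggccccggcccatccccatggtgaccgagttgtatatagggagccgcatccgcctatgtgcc
TUBA1C, start 3 (chr12:49265002-49265081, plus strand): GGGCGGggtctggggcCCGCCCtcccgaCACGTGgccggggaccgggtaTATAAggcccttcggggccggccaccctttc
TUBA4A (chr2:219253919-219253998, minus strand): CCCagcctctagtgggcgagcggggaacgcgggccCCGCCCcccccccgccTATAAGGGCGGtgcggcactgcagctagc
TUBB2A (chr6:3157545-3157624, minus strand): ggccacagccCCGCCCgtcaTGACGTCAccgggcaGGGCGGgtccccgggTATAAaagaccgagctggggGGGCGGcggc
TUBB3, start 2 (chr16:89923262-89923341, plus strand): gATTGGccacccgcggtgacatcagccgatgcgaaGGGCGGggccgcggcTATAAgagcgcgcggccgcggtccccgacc
TUBB4B (chr9:137241207-137241286, plus strand): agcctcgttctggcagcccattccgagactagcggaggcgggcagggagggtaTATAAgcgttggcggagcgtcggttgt
TUBB6, start 1 (chr18:12307589-12307668, plus strand): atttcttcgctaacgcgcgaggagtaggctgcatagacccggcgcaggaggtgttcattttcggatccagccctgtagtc
TUBB6, start 2 (chr18:12308161-12308240, plus strand): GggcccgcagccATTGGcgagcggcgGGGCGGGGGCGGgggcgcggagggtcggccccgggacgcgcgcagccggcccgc
TUBA1B (chr12:49131396-49131475, minus strand): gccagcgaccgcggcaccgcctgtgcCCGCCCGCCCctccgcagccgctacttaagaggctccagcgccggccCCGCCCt
TUBB, start 1 (chr6:30720272-30720351, plus strand): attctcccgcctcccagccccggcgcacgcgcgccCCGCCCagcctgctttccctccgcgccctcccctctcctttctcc
TUBB, start 2 (chr6:30721558-30721637, plus strand): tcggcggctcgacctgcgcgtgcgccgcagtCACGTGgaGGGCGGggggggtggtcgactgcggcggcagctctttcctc
TUBB2B (chr6:3227654-3227733, minus strand): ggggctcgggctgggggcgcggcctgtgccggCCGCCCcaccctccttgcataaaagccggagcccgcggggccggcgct
All 10 members matched the table, with 15 listed starts. The letters of the TATA box began 31 bases before the start in TUBA1C, 30 in TUBB2A and TUBB3, 29 in TUBA4A and 27 in TUBB4B. They were not found in the windows of 250 bases before to 50 after the starts of the other 5 members, so 5 of the 15 listed starts had them, against 20.4% of the 35116 listed promoters. The CCAAT box was in 9 of the 15 starts (34.6% of all promoters), the GC box in 9 (45%), the E box in 2 (7.26%) and the cAMP response element in 1, that of TUBB2A (1.85%). These matches describe letters and are no evidence that a factor binds there.

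Lurbinectedin was followed by higher mRNA of 7 of the 10 tubulin genes, while the most abundant alpha gene, TUBA1B, and the most abundant beta gene, TUBB, were not called. The 7 were TUBA1A, TUBA1C, TUBA4A, TUBB2A, TUBB3, TUBB4B and TUBB6, with folds from 1.96 to 7.85. A gene was called when its Benjamini-Hochberg adjusted p in edgeR's quasi-likelihood test was under 0.05. The adjustment ran over all 16683 genes that passed a filter on low counts. All 10 members passed that filter, but TUBA4A did so only through the libraries with lurbinectedin, where it was higher. Its call is therefore not independent of the filter. At a filter of 1 CPM in 3 libraries TUBA4A was not tested, and 6 members were called with lurbinectedin, all higher, beside 10616 of 14080 genes. Gene positions below are those of the deposited tables on hg38 and span the whole gene, whereas counts are over its exons. Levels are read counts scaled to a common library size (CPM) after TMM scaling, a correction for library composition. They are relative to the other RNA of the same library, so a change in total RNA per cell would not show in them. Words such as higher, lower, rose and fell are meant in this relative sense, and amounts per cell were not measured. In the same comparison 71.6% of all tested genes were called, 36% as higher (5999 genes) and 35.7% as lower (5954), so calls as such were common. The median log2 fold change of the 10 members was 1.10, against 0.05 over all tested genes. RNA was measured in bulk, so more or fewer cells with a given mRNA and more or less of it per cell cannot be told apart.

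**Figure D1:**
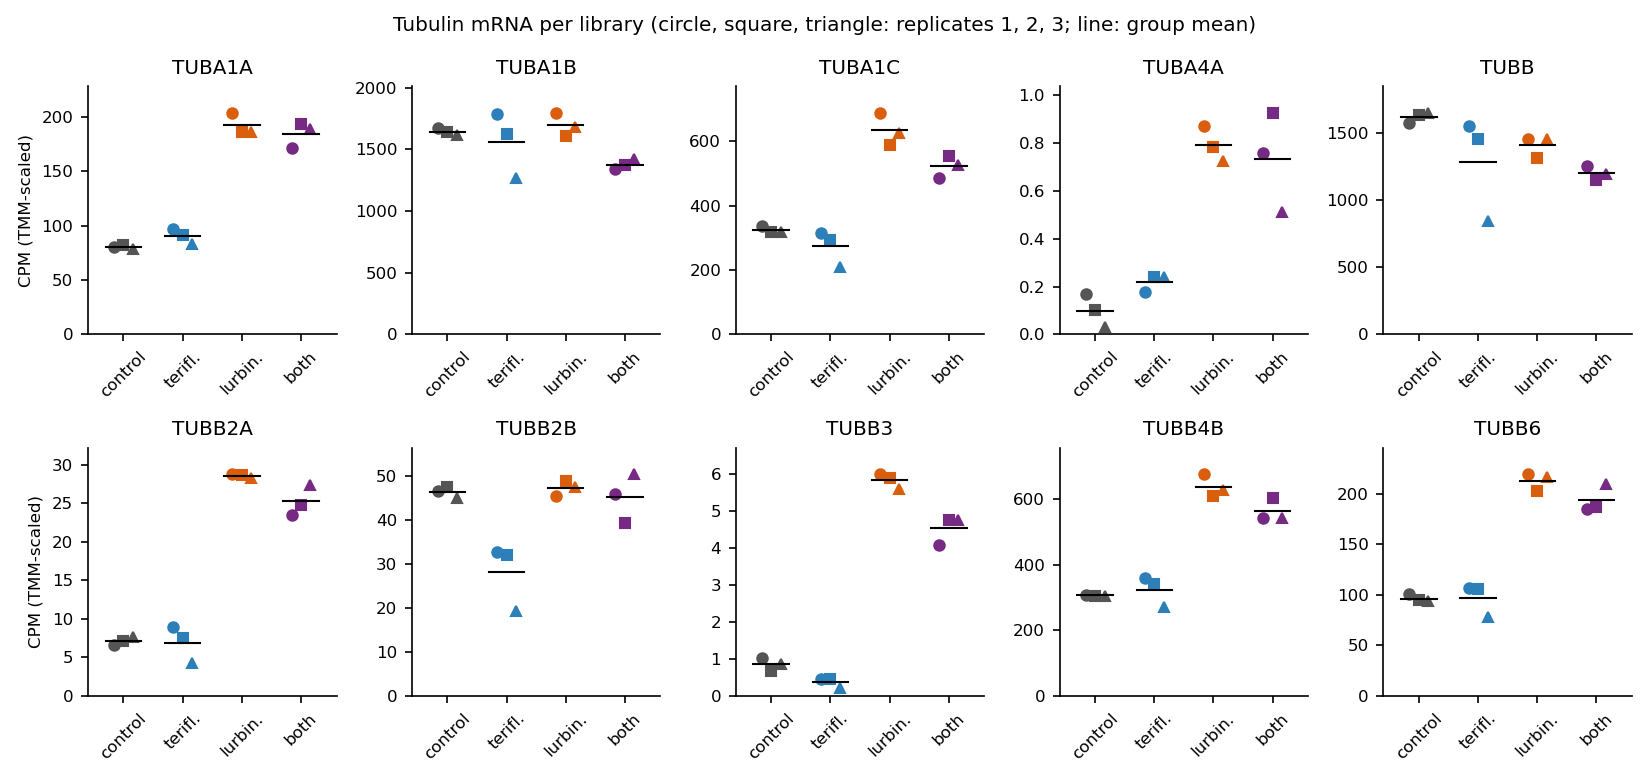
Normalised level of each tubulin gene (vertical axis, TMM-scaled CPM, linear and starting at 0, with its own range in each panel) in every library of the 4 groups (horizontal axis; terifl., teriflunomide; lurbin., lurbinectedin; both, the combination). Points are libraries and lines are group means; TUBB2A lies between 28.3 and 28.8 CPM in the 3 lurbinectedin libraries and at or under 8.91 in all control and teriflunomide libraries.

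Among the alpha genes, TUBA1B (chr12:49127782-49131397, minus strand) is the ubiquitous isotype of dividing cells. TUBA1B stood at 1671, 1643 and 1616 CPM in replicates 1, 2 and 3 of the control, at 1785, 1621 and 1263 under teriflunomide, at 1797, 1605 and 1681 under lurbinectedin and at 1339, 1372 and 1419 under both drugs. The lurbinectedin libraries overlapped the controls, whereas the combination libraries lay below all of them. The log2 fold change with lurbinectedin was 0.04 (SE 0.11, adjusted p 0.738), and with the combination -0.26 (SE 0.11, adjusted p 0.0592). The latter passed the threshold with DESeq2 (0.0476), with scaling by library size alone (0.0446), without a filter on low counts (0.0259) and with only these 2 groups in the fit (0.013). Of the 3574 exon bases of TUBA1B, 1571 overlap TUBA1B-AS1 on the other strand, which stood at 5.15 CPM in control and 5.86 with lurbinectedin (log2 fold change 0.18, adjusted p 0.283).

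TUBA1C (chr12:49188736-49274600, plus strand) lies close to TUBA1B and TUBA1A and encodes a nearly identical protein. TUBA1C stood at 337, 318 and 318 CPM in replicates 1, 2 and 3 of the control, at 315, 294 and 211 under teriflunomide, at 689.5, 589.9 and 626 under lurbinectedin and at 487, 554 and 528 under both drugs. Every library with lurbinectedin, alone or combined, was above every library without it. TUBA1C rose by 0.97 on the log2 scale with lurbinectedin (SE 0.13, adjusted p 1.35e-05) and by 0.69 with the combination (SE 0.13, adjusted p 0.000324). Of its 4454 exon bases, 666 overlap a gene without a symbol on the other strand, which drew 484 counts over all libraries.

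TUBA1A (chr12:49184686-49189080, minus strand) is the main alpha isotype of young neurons and is carried at lower levels by many other cells. TUBA1A stood at 80.1, 81.9 and 78.6 CPM in replicates 1, 2 and 3 of the control, at 96.5, 91.4 and 83 under teriflunomide, at 204, 187 and 186 under lurbinectedin and at 171, 194 and 189 under both drugs. The 6 libraries with lurbinectedin lay above the other 6. Its rise was 1.26 on the log2 scale with lurbinectedin (SE 0.09, adjusted p 2.98e-08) and 1.20 with the combination (SE 0.09, adjusted p 6.09e-08). TUBA1A and TUBA1C share 345 exon bases on opposite strands, and whether the counting used strand is not given in the sources used here.

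TUBA4A (chr2:219249710-219277902, minus strand), an isotype of platelets, muscle and neurons, was close to absent. It drew 5, 3 and 1 reads in replicates 1, 2 and 3 of the control, against 6, 8 and 7 under teriflunomide, 18, 20 and 20 under lurbinectedin and 21, 22 and 16 under both drugs. The groups with lurbinectedin did not overlap those without it. The scaled count ratio of lurbinectedin to control was 8.15, with a 95% exact interval of 4.01 to 18.7 that covers counting error only, and the fitted log2 fold change was 2.97 (SE 0.43, adjusted p 2.99e-05). With the combination it was 2.84 (SE 0.44, adjusted p 5.17e-05). Of its 3698 exon bases, 628 overlap exons of STK16 on the other strand; STK16 had 12.5 CPM in control and a log2 fold change of 0.18 with lurbinectedin (adjusted p 0.303).

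Among the beta genes, TUBB (chr6:30717435-30725538, plus strand) is the ubiquitous class I isotype. TUBB stood at 1571, 1627 and 1648 CPM in replicates 1, 2 and 3 of the control, at 1552, 1450 and 845 under teriflunomide, at 1453, 1313 and 1455 under lurbinectedin and at 1254, 1149 and 1191 under both drugs. With lurbinectedin all 3 libraries were below the lowest control library, but the log2 fold change of -0.20 (SE 0.17) had an adjusted p of 0.296; with only these 2 groups in the fit it was called, at -0.22 (0.000627). With the combination TUBB fell by 0.43 on the log2 scale (SE 0.17, adjusted p 0.0336). That call was lost when any 1 control or combination library was left out, with adjusted p from 0.0553 to 0.0924, and at a filter of 1 CPM (0.0587). Of the 4071 exon bases of TUBB, 538 overlap a gene without a symbol on the other strand, which drew 730 counts over all libraries.

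TUBB4B (chr9:137241287-137243707, plus strand), the class IVb isotype found in many tissues and in cilia, was the second beta gene. TUBB4B stood at 308, 305 and 306 CPM in replicates 1, 2 and 3 of the control, at 359, 341 and 269.7 under teriflunomide, at 676, 608 and 629 under lurbinectedin and at 543, 602 and 542 under both drugs. The lowest lurbinectedin library, at 608 CPM, was far above the highest control library. TUBB4B rose by 1.06 on the log2 scale with lurbinectedin (SE 0.11, adjusted p 8.07e-07) and by 0.88 with the combination (SE 0.11, adjusted p 6.04e-06).

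TUBB6 (chr18:12307669-12344320, plus strand), the class V isotype, followed the same order of groups. TUBB6 stood at 101, 94.8 and 93.5 CPM in replicates 1, 2 and 3 of the control, at 107, 105 and 78.4 under teriflunomide, at 219, 203 and 216 under lurbinectedin and at 185, 187 and 210.2 under both drugs. All 6 libraries with lurbinectedin lay above the other 6. The rise was 1.15 on the log2 scale with lurbinectedin (SE 0.12, adjusted p 8.34e-07) and 1.01 with the combination (SE 0.12, adjusted p 3.34e-06). TUBB6 shares 837 of its 3941 exon bases with AFG3L2 on the opposite strand, and AFG3L2 had a log2 fold change of -0.14 with lurbinectedin (adjusted p 0.135).

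TUBB2A (chr6:3153497-3157544, minus strand) and TUBB2B (chr6:3223324-3231730, minus strand), the class II isotypes best known from the nervous system, lie close together on chromosome 6. TUBB2A stood at 6.6, 7.09 and 7.65 CPM in replicates 1, 2 and 3 of the control, at 8.91, 7.52 and 4.22 under teriflunomide, at 28.8, 28.6 and 28.3 under lurbinectedin and at 23.5, 24.8 and 27.4 under both drugs. TUBB2B stood at 46.5, 47.3 and 44.9 CPM in replicates 1, 2 and 3 of the control, at 32.7, 32.0 and 19.3 under teriflunomide, at 45.3, 48.7 and 47.4 under lurbinectedin and at 45.7, 39.2 and 50.3 under both drugs. Although these are the most similar pair in sequence, their values separate: TUBB2A rose by 2.0 on the log2 scale with lurbinectedin (SE 0.20, adjusted p 7.2e-07), while the log2 fold change of TUBB2B was 0.03 (SE 0.17, adjusted p 0.891). With the combination the log2 fold change of TUBB2A was 1.83 (SE 0.20, adjusted p 2.15e-06) and that of TUBB2B -0.04 (SE 0.17, adjusted p 0.859). The difference between the 2 genes was not itself tested.

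TUBB3 (chr16:89921392-89938761, plus strand), the class III isotype used as a marker of neurons and studied in resistance to taxanes, was present at about 1 CPM or less without lurbinectedin. TUBB3 stood at 1.04, 0.669 and 0.866 CPM in replicates 1, 2 and 3 of the control, at 0.469, 0.449 and 0.204 under teriflunomide, at 6.01, 5.9 and 5.6 under lurbinectedin and at 4.09, 4.76 and 4.75 under both drugs. The lurbinectedin libraries were each above every combination library, and both groups were far above the rest. The rise was 2.76 on the log2 scale with lurbinectedin (SE 0.22, adjusted p 5.83e-08), resting on 429 counts against 80, and 2.40 with the combination (SE 0.22, adjusted p 3.16e-07). TUBB3 shares 1584 of its 7421 exon bases with a read-through gene on the same strand that has 0 counts in all libraries, so its level may be understated where reads fitting both genes were dropped; how such reads were treated is not given in the sources used here. The neuronal markers RBFOX3 and MAP2 had means of at most 0.0743 CPM in every group, and SNAP25, the other neuronal marker listed, was at 2.7 CPM in control and 0.196 with lurbinectedin. Of 8 listed neuroendocrine markers 4 were tested, and with lurbinectedin 2 rose, 1 fell and 1 was not called. These calls go both ways and stand beside 36% of all tested genes called higher and 35.7% called lower, so the list shows no single direction. The part of these markers in the tubulin values was not tested.

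**Figure D2:**
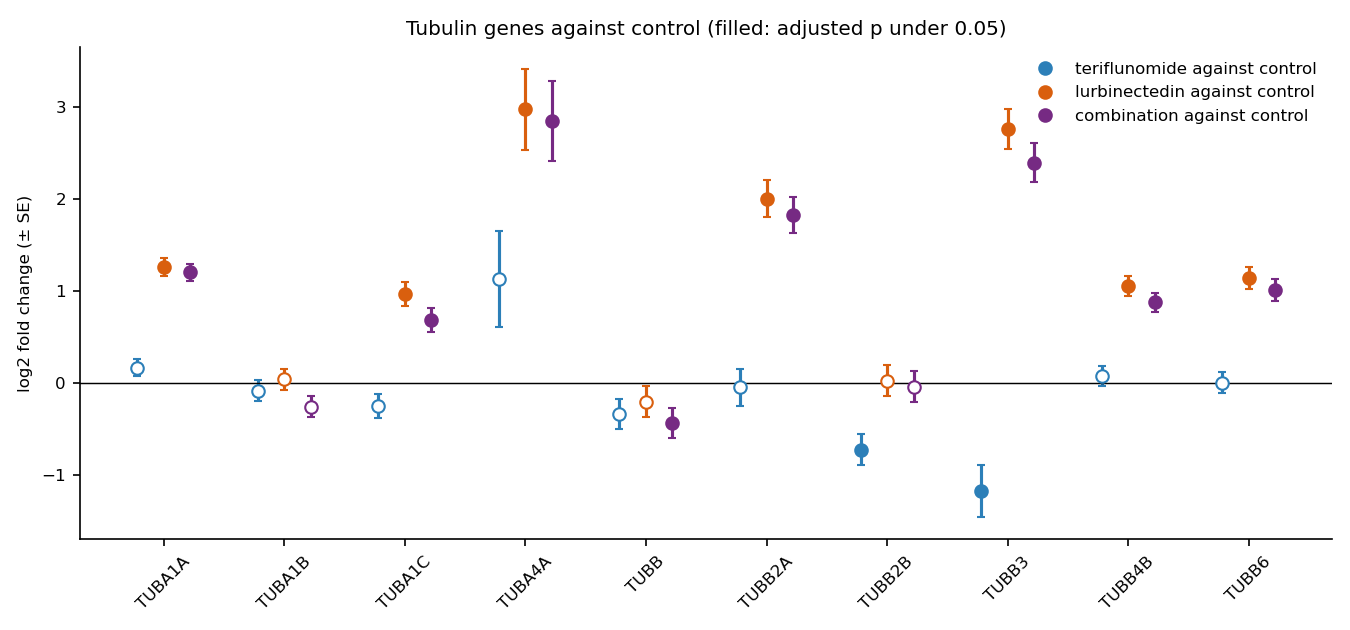
Log2 fold change of each tubulin gene (vertical axis) against control for each drug and for both together; bars are standard errors and filled points passed an adjusted p under 0.05. The 7 genes that rose with lurbinectedin also rose with the combination, from 0.69 for TUBA1C to 2.84 for TUBA4A, and the 3 comparisons share the control libraries.

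The make-up of both families differed between groups. Make-up was taken as each gene's share of the alpha or the beta total in CPM per kb of exon length, the only scale on which levels of different genes are compared here, and it is a description with no test. TUBA1B made up 83.1% ± 0.154 (SD, n = 3) of alpha-tubulin mRNA in control and 71.1% ± 0.324 with lurbinectedin, while TUBA1C made up 13.1% ± 0.23 and 21.4% ± 0.385, and TUBA1A 3.79% ± 0.0808 and 7.54% ± 0.177. Of beta-tubulin mRNA, TUBB made up 67.8% ± 0.716 in control and 47.0% ± 0.931 with lurbinectedin, and TUBB4B 25.7% ± 0.467 and 42.6% ± 0.932. TUBB6 made up 4.18% ± 0.224 and 7.36% ± 0.0769, and TUBB2A 0.418% ± 0.0251 and 1.34% ± 0.0675. With the combination TUBA1B was 69.9% ± 1.14 of the alpha total and TUBB 46.0% ± 2.1 of the beta total, and TUBA1A was 8.76% ± 0.29, with no overlap with its shares under lurbinectedin.

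**Figure D3:**
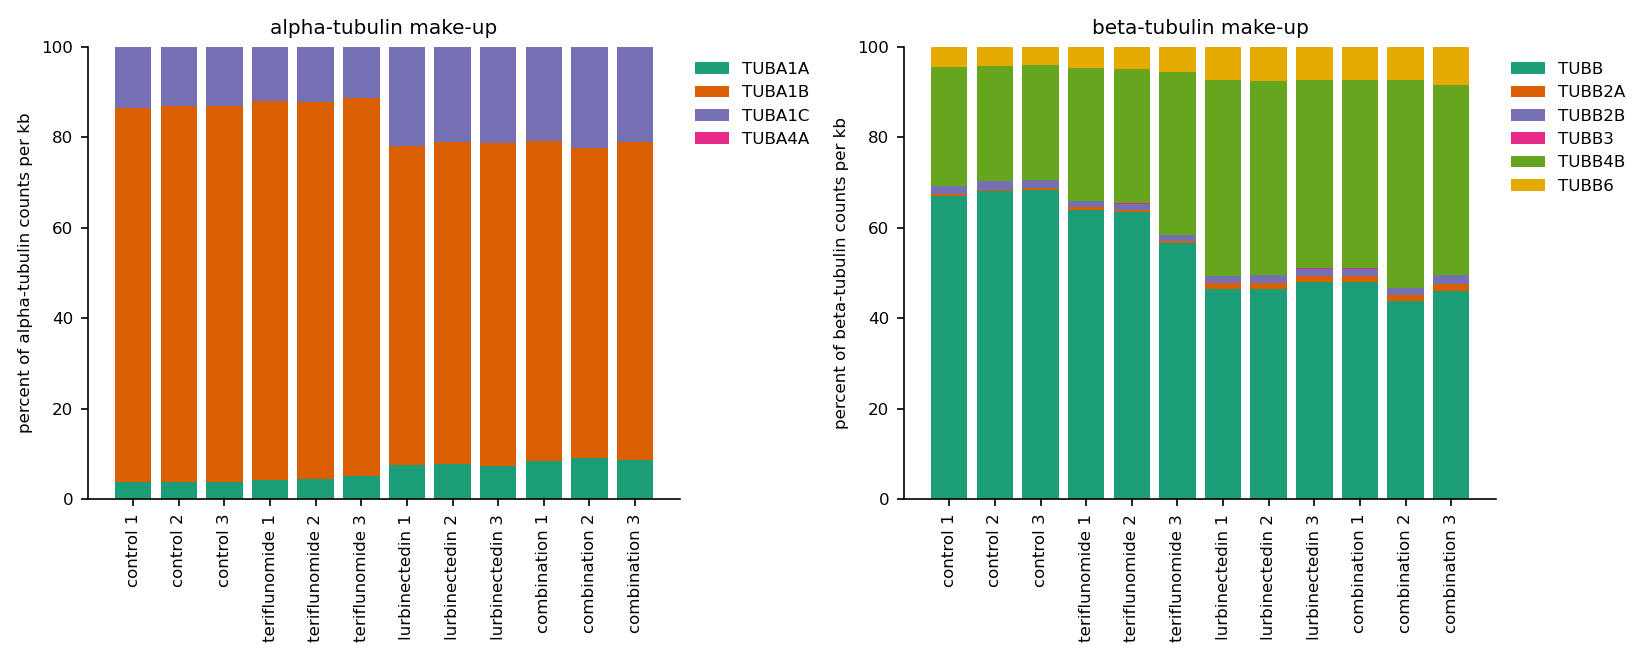
Percent of alpha-tubulin (left) and beta-tubulin (right) CPM per kb of exon length that each gene took (vertical axes) in each of the 12 libraries (horizontal axes). The share of TUBB lies between 67.0 and 68.4% in the control libraries and between 46.4 and 48.1% with lurbinectedin, and TUBA4A and TUBB3 are too small to see.

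Per kb, the order of levels in control was TUBA1B (459.9 ± 7.77 CPM per kb, SD, n = 3), TUBB (397 ± 9.75), TUBB4B (150.2 ± 0.731), TUBA1C (72.8 ± 2.37), TUBB6 (24.4 ± 0.958), TUBA1A (21.0 ± 0.429), TUBB2B (11.1 ± 0.295), TUBB2A (2.45 ± 0.18), TUBB3 (0.116 ± 0.025) and TUBA4A (0.0268 ± 0.0186), and no neighbours in this order overlapped. With lurbinectedin the order was the same, but the libraries of TUBB (346 ± 20.0) and TUBB4B (313 ± 17.1) overlapped, as did those of TUBB6 and TUBA1A. The ratio of alpha to beta totals per kb was 0.947 ± 0.031 in control, 1.04 ± 0.099 under teriflunomide, 0.908 ± 0.020 under lurbinectedin and 0.862 ± 0.034 under both drugs. All 10 genes together took 0.449% ± 0.007 of all counts in control and 0.450% ± 0.019 with lurbinectedin, 0.383% ± 0.120 with teriflunomide and 0.399% ± 0.053 with the combination. Mitochondrial genes took 6.26 to 7.17% of counts in control and 13.8 to 17.0% with lurbinectedin, and of the remaining counts the 10 genes took 0.481% ± 0.006 and 0.534% ± 0.016.

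Teriflunomide alone was followed by lower mRNA of 2 members, TUBB2B and TUBB3, and by no call among the other 8; 6.01% of all tested genes were called in that comparison, 3.88% as higher and 2.13% as lower. TUBB2B, given above for every library, fell by 0.72 on the log2 scale (SE 0.17, adjusted p 0.0252) and TUBB3 fell by 1.17 (SE 0.28, adjusted p 0.0294), the latter from 80 to 37 counts over 3 libraries. For both genes all 3 teriflunomide libraries lay below all 3 controls. The groups did not overlap for 6 of the 10 members, against 36.8% of all tested genes. Both calls were lost with library size as the only scaling (adjusted p 0.133 for TUBB2B and 0.0793 for TUBB3), with only these 2 groups in the fit (0.104 and 0.115), and, for TUBB2B, whichever control library was left out; the TUBB3 call was lost without control replicate 1 or 3 or without teriflunomide replicate 3 (0.0517).

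Teriflunomide replicate 3 was the lowest of its group for 9 of the 10 members, TUBA4A being the exception, with TUBB at 845 CPM against 1552 and 1450 in the other 2. It also had 22.6% of its counts on mitochondrial genes, against 8.42 and 8.43% in the other teriflunomide libraries, and combination replicate 2 had 24.9%, the highest of all libraries; the part of these shares in the tubulin values was not tested. Without these 2 libraries, an alternative chosen after seeing the data, 4 members were called with teriflunomide: TUBA1A (log2 fold change 0.23, adjusted p 0.0355) and TUBB4B (0.19, 0.0486) higher, and TUBB2B (-0.51, 0.000238) and TUBB3 (-0.90, 0.0385) lower, while 16.3% of all tested genes were called. TUBB was then called lower with lurbinectedin too, at -0.21 (adjusted p 0.00362), and TUBA1B lower with the combination, at -0.26 (0.00218).

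Adding teriflunomide to lurbinectedin called none of the 10 members, and none of the 16683 tested genes (0%). The log2 fold changes of the combination against lurbinectedin ran from -0.36 for TUBB3 to -0.06 for TUBA1A, and the smallest adjusted p was 0.245, for TUBA1B. At an unadjusted p under 0.05 there were 2 members, TUBA1B and TUBA1C, both lower, among 2599 of all 16683 genes, and DESeq2 called 0 members and 584 genes. For 6 members the combination libraries were all below the lurbinectedin libraries, against 23.7% of all tested genes with groups that did not overlap in either direction. Without the 2 libraries named above 4 members were called lower, TUBA1B (log2 fold change -0.29, adjusted p 0.00534), TUBA1C (-0.32, 0.00417), TUBB (-0.20, 0.042) and TUBB4B (-0.23, 0.0162), with 21.5% of all tested genes called.

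**Figure D4:**
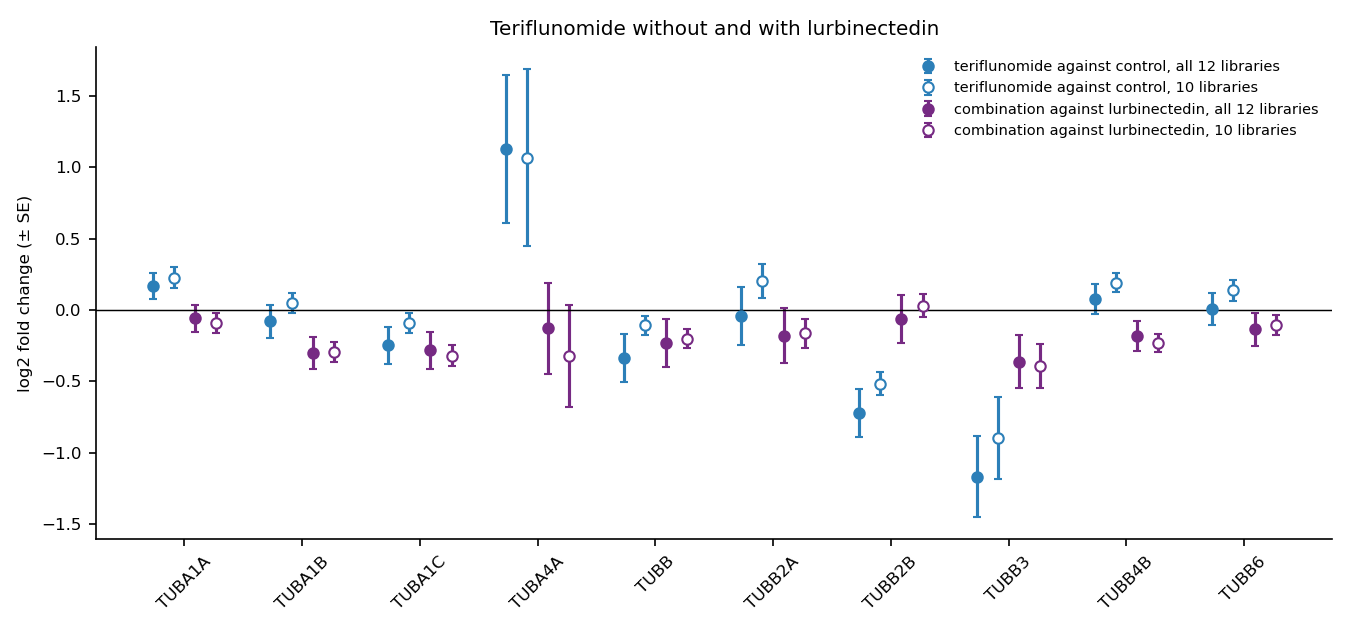
Log2 fold change (vertical axis, bars are standard errors) of each tubulin gene with teriflunomide against control and with the combination against lurbinectedin, 2 comparisons that share no library, from all 12 libraries (filled) and without teriflunomide replicate 3 and combination replicate 2 (open). TUBB2B lies at -0.72 and -0.06 in the 2 comparisons over all libraries, and TUBB3 at -1.17 and -0.36.

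The interaction of the drugs, which is the log2 effect of teriflunomide with lurbinectedin minus its effect without, was called for 0 members and for 0.258% of all tested genes (0.036% higher, 0.222% lower). TUBB2B (0.66, SE 0.24, adjusted p 0.356) and TUBB3 (0.80, SE 0.34, adjusted p 0.427) had an unadjusted p under 0.05, as had 1726 of all 16683 genes, and DESeq2 called 0 members and 256 genes. Without the same 2 libraries 4 were called, TUBB2B at 0.54 (adjusted p 0.00493), TUBB4B at -0.42 (0.00599), TUBA1B at -0.34 (0.028) and TUBA1A at -0.32 (0.0492), with 10.9% of all tested genes called.

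Against teriflunomide alone the combination had 8 members higher and 0 lower, with 70.9% of all tested genes called (35.2% higher, 35.8% lower). They were the 7 that rose with lurbinectedin, from 0.80 for TUBB4B to 3.56 for TUBB3 on the log2 scale, and TUBB2B at 0.68 (SE 0.17, adjusted p 0.00231), whose call was lost with library size as the only scaling (0.0528). Without teriflunomide replicate 3 all 10 were called, TUBA1B (-0.31, adjusted p 0.00169) and TUBB (-0.33, 0.00102) as lower, with 12497 of 17072 tested genes called. Combination libraries against control called 8 members, 7 higher and 1 lower, with 68.4% of all tested genes called (34.1% higher, 34.4% lower). Groups did not overlap for 8 members with lurbinectedin against control (83.2% of all tested genes), 9 with the combination against control (77.2%) and 8 with the combination against teriflunomide (70.7%).

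From outermost exon to outermost exon, TUBB4B extends over 2.42 kb, TUBA1B 3.62, TUBB2A 4.05, TUBA1A 4.39, TUBB 8.10 and TUBB2B 8.41 kb. The annotated extents of TUBA1C, TUBA4A, TUBB3 and TUBB6 are 85.9, 28.2, 17.4 and 36.7 kb and are not used here, and all 4 rose with lurbinectedin. For these 4, and for TUBB and TUBB2B, the annotated extent is wider than the stretch transcribed from at least 1 listed start. The placing of 6 members below therefore holds for annotated extent only. Of the 4968 tested genes whose extent is under 10 kb, 52.8% rose and 12.4% fell with lurbinectedin, with a median log2 fold change of 0.67. Of the 6 members of that size, TUBA1A, TUBB2A and TUBB4B lay above that median and TUBA1B, TUBB and TUBB2B below it. The 5 members with TATAA 27 to 31 bases before a listed start were also all among the 7, while TUBA1A and TUBB6 rose without it. Only the exact letters were searched. Near matches, such as those in the lines of TUBA1A, which rose, and TUBB2B, which was not called, were not counted. Of 537 tested genes with TATAA beginning 40 to 20 bases before a start, 47.1% rose, against 34.5% of the 11364 tested genes in the promoter table.

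Proteins that act on tubulin were described from lists of related genes, by counts over the tested members with no test of the list. All list counts with lurbinectedin stand beside 36% of all tested genes called higher and 35.7% called lower in that comparison. Of the other tubulin genes, 4 of 10 passed the filter, and with lurbinectedin TUBE1 (epsilon-tubulin, of centrioles) rose from 9.35 ± 0.498 to 15.4 ± 1.16 CPM (log2 fold change 0.72, adjusted p 0.00544), TUBB4A rose by 0.83 (0.0126) and TUBD1 (delta-tubulin) fell from 16.4 ± 0.835 to 11.6 ± 0.752 CPM (-0.50, 0.00146). TUBB1, the platelet isotype, was not called, at 0.380 CPM in control. Of 12 genes of microtubule nucleation 4 rose and 4 fell: TUBG1, the gamma-tubulin that seeds microtubules, rose by 1.10 (adjusted p 5.31e-08), whereas the centrosomal CDK5RAP2 fell from 119 to 7.96 CPM (-3.90, 1.33e-09) and TUBGCP3, a part of the gamma-tubulin ring complex, fell as well (-1.05, 3.94e-07).

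Of 20 genes of tubulin folding, 10 rose and 4 fell with lurbinectedin, beside 36% and 35.7% of all tested genes. The 8 subunits of the CCT chaperonin, which folds tubulin and actin, all rose, from 0.28 for CCT5 (adjusted p 0.0253) to 0.66 for CCT8 (6.19e-05) on the log2 scale. They were singled out after their values were seen. With the combination TCP1, CCT6A, CCT7 and CCT8 were called higher, but CCT2 (adjusted p 0.114), CCT3 (0.559), CCT4 (0.430) and CCT5 (0.611) were not called. TBCC and PFDN5, a folding cofactor and a prefoldin subunit, rose by 1.13 (4.01e-06) and 1.57 (3.48e-06), and TBCD, the cofactor that holds beta-tubulin, fell from 86.6 to 10.6 CPM (-3.03, 1.6e-08). Of 12 genes of tubulin mRNA decay 3 rose and 8 fell. TTC5 fell from 21.2 to 15.3 CPM (log2 fold change -0.48, adjusted p 0.00311) and SCAPER from 12.2 to 1.0 CPM (-3.59, 1.96e-09). The CCR4-NOT genes went both ways. CNOT2 and CNOT6L fell (-1.36, 1.23e-07, and -1.89, 1.36e-07), whereas the 3 that rose were CNOT3 (0.49, 0.00449), CNOT8 (0.26, 0.0197) and CNOT9 (0.56, 4.44e-05).

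Of 18 tested enzymes that modify tubulin, 4 rose and 9 fell with lurbinectedin, beside the same 36% and 35.7% of all tested genes. TTLL11 and TTLL5, which add glutamate chains, fell, with log2 fold changes of -3.81 (adjusted p 7.64e-10) and -3.44 (1.03e-08), as did AGTPBP1, which removes them (-3.05, 3.59e-09). Of 30 tested microtubule-binding proteins 8 rose and 17 fell, with MAP4 going from 309 ± 12.7 to 18.5 ± 2.54 CPM (-4.06, 2.4e-10), CLASP1 from 96.0 to 4.30 CPM (-4.48, 4.95e-10) and DPYSL2 from 229 to 30.9 CPM (-2.89, 1.28e-09). The median log2 fold changes with lurbinectedin were 0.28 for folding, -0.52 for mRNA decay, -0.25 for modifying enzymes and -0.86 for microtubule-binding genes, beside 1.10 for the 10 tubulins and 0.05 for all tested genes. With teriflunomide alone, calls in these lists, beside 6.01% of all tested genes, were 0 of 4 other tubulins, 1 of 12 nucleation genes, 1 of 20 folding genes, 0 of 12 decay genes, 0 of 18 modifying enzymes and 1 of 30 binding proteins.

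The genes whose pattern over the 12 libraries was closest to each member, by Pearson's r of log2 CPM among 10428 genes with at least 5 CPM on average, are a description, since all libraries share the same 4 groups. TUBA1A was closest to CSRNP2 (r = 0.998), TUBA1C to NELFE (0.998), TUBA4A to H2BC15 (0.979), TUBB2A to LSR (0.997), TUBB3 to RNPS1 (0.995), TUBB4B to TRIAP1 (0.998) and TUBB6 to TRAF4 (0.998). Of the 3 that did not rise, TUBA1B was closest to PARK7 (0.977), TUBB to DCTD (0.982) and TUBB2B to ATAD3B (0.986). Within the family, TUBA1B and TUBB were closest to each other (0.848), and TUBB2A and TUBB6 likewise (0.993).

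Total counts ran from 23206414 to 33222162 a library. Markers listed for small cell lung cancer were found in part. Of its neuroendocrine markers, INSM1, NCAM1 and GRP had 0 counts in control, while SYP stood at 16.8 CPM, NEUROD1 at 4.03 and DLL3 at 1.96. Of the 4 markers listed for its non-neuroendocrine form, 3 passed the filter, and YAP1 stood at 246 and MYC at 201 CPM in control. KRT8 stood at 243 CPM, but EPCAM, CDH1 and KRT18 at or under 0.162. Of markers of other cells, PTPRC was at 0.0232 CPM and PECAM1 at 0.364 in control, and COL1A1, a fibroblast marker, at 266 CPM in control and 107 with lurbinectedin; its part in the results was not tested.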

How the data were processed

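Raw counts per gene were deposited by the authors, 1 table per library, in the featureCounts column layout per the file headers; each table also gives gene positions and exon length. The submitters' processing notes name fastp 0.23.2, STAR 2.7.9, Subread, featureCounts and hg38. Use of strand, treatment of reads that fit several genes and read length are not given in the sources used here. Symbols were matched to 60507 of 60649 identifiers.

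Groups follow the treatment label. Genes were kept by filterByExpr and tested with edgeR 4.0.16 (R 4.3.3): TMM scaling, a quasi-likelihood fit with robust dispersion and 1 mean per group over all 12 libraries, and Benjamini-Hochberg adjustment over all 16683 tested genes within each of 6 comparisons. Standard errors come from the F statistic. Tests were checked on simulated counts in which few genes changed, equally in both directions, with the same relative spread for every gene. That setting is unlike these data, so the check does not carry over to comparisons where most genes were called. Alternatives were other scalings and filters, a replicate block, only the groups compared, DESeq2 1.42.0, leaving out each library and, added after seeing the data, leaving out 2 libraries or the mitochondrial genes. All 10 members were named. Of each related list, at most 3 genes with the smallest adjusted p with lurbinectedin at 5 CPM or more were named, plus any other tubulin, TTC5 and SCAPER. The CCT subunits, the CCR4-NOT genes that rose and genes that overlap members were named after their values were seen. The values of 1 listed marker are not reported here. The members and lists were chosen with earlier results of these data known. Promoters came from RefSeq (GRCh38.p14) and coding sequences from GENCODE 29, read with Biopython 1.88.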

Additional observations from a re-analysis of the deposited data

How the results depend on the processing

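No tubulin gene changed direction past the threshold in any alternative run: over all members and comparisons 902 alternative values kept their side of the threshold, 21 newly passed it and 20 no longer did. The number of members called with teriflunomide was 2 and became 0 under scaling by library size alone and 0 with only the groups compared, where calls over all genes went from 1002 to 265 and 283, and 0 to 2 when 1 library was left out. Without teriflunomide replicate 3 and combination replicate 2 it became 4, the number with the combination against lurbinectedin went from 0 to 4, and the interaction from 0 to 4; the cause was not tested. Library size alone also moved the median over all genes with lurbinectedin from 0.05 to -0.18 (log2) and the share of calls that were higher to 39.2%, with the same 7 members called higher and, uncalled, TUBA1B at -0.19 and TUBB2B at -0.21. Of counts outside the mitochondrial genome, the members took 0.481% in control, 0.534% with lurbinectedin and 0.483% with the combination, the fall in the denominator being part of that setting. A check gave no sign that the replicate numbers pair the libraries: deviations of same-numbered libraries correlated at -0.40 to 0.14, 1 of 18 pairs was over 0.1, and 0 of 12 libraries was closest to its own number. It cannot exclude a pairing, because deviations were taken from group means of 3 libraries, which 1 outlying library shifts. With the replicate block 0 members were called with teriflunomide (TUBB2B at adjusted p 0.0589, TUBB3 at 0.0658) and 7 with lurbinectedin, beside 415 and 11591 of all 16683 genes. TUBA4A, with 9 counts in all controls, is the gene most limited by depth.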
